A study of Mus musculus with 6 samples.

Results

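The miR-17~92 cluster is a group of 6 miRNAs cut from 1 primary transcript, and its members were followed in small RNA from extracellular vesicles (EVs) of 2 cell types. The members were taken by name from the mature miRNA rows of the deposited count table: mmu-miR-17-5p, mmu-miR-18a-5p, mmu-miR-19a-3p, mmu-miR-20a-5p, mmu-miR-19b-3p and mmu-miR-92a-3p. They are 6 of 902 mature miRNA rows and of 61949 rows in all. Astrocyte EVs came from cultured cortical astrocytes and neural stem cell (NSC) EVs from cultured primary NSCs of the neonatal subventricular zone, both from CD1 mice and with no genetic or drug treatment given for these libraries, and each EV type had 3 small RNA libraries. The astrocytes were grown from dorsal cortices of neonatal pups and shaken to remove microglia and then oligodendrocytes, and their EVs were pelleted from serum-containing medium by ultracentrifugation. Per the series record, EVs of both cultures were collected by serial centrifugation, but the medium of the NSCs is not stated, so cell type cannot be told apart from culture conditions. The labels do not say whether replicates were separate cultures or animals, and p-values therefore measure only the spread between these libraries.

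The primary transcript of the cluster folds into a row of hairpins, and each hairpin is cut by Drosha and then Dicer into a short duplex from which 1 arm is usually kept as the mature miRNA. The cluster is induced by MYC, is high in dividing progenitors, and is best known for promoting proliferation and survival, including that of neural progenitors. All members leave the same transcript, while some of them are also encoded elsewhere in the genome.

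A mature miRNA finds its targets mainly through its seed, bases 2 to 8. The 6 mature sequences are shown 5′ to 3′ in the order of the transcript, with the seed in capitals, because the comparisons that follow turn on which members share a seed.
mmu-miR-17-5p: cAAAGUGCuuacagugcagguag
mmu-miR-18a-5p: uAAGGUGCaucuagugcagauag
mmu-miR-19a-3p: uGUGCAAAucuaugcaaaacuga
mmu-miR-20a-5p: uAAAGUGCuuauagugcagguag
mmu-miR-19b-3p: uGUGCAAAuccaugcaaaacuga
mmu-miR-92a-3p: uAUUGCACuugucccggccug
Sequences and positions are those of RefSeq on GRCm38.p6, the assembly named mm10 in the submitters' notes, and all 6 members were matched. MiR-17-5p and miR-20a-5p share the seed AAAGUGC and differ by C1U and C12U, with positions counted from the 5′ end and the base of the first-named miRNA first. MiR-18a-5p has the related seed AAGGUGC and differs from miR-17-5p at 6 of 23 bases, of which A4G falls in the seed. MiR-19a-3p and miR-19b-3p share the seed GUGCAAA and differ by U11C alone. MiR-92a-3p has the seed AUUGCAC, which no other member has.

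The 6 hairpins lie within 836 bases of chromosome 14, on the plus strand, in exon 2 (chr14:115043271-115046727) of the noncoding host gene Mir17hg (chr14:115042879-115046727) in the GENCODE vM21 annotation. The mature sequences start with miR-17-5p at chr14:115043684-115043706 and are followed by miR-18a-5p at chr14:115043867-115043889 and miR-19a-3p at chr14:115044048-115044070. MiR-20a-5p lies at chr14:115044183-115044205, miR-19b-3p at chr14:115044358-115044380 and miR-92a-3p, the last, at chr14:115044476-115044496. MiR-19b-3p and miR-92a-3p have a second, identical copy in the paralogous miR-106a-363 cluster of chromosome X, at chrX:52741991-52742013 and chrX:52741854-52741874 on the minus strand, so reads of these members do not identify their locus.

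The libraries held from 72359982 to 111851274 counts over all rows in astrocyte EVs, against 44620985 to 50898531 in NSC EVs. Mature miRNA rows took 182075, 209445 and 399211 of these counts in astrocyte EV replicates 1, 2 and 3, against 259560, 203506 and 177093 in NSC EVs. A total of 3 counts, the limit that a count of 0 allows, was worth from 7.51 to 16.5 counts per 1000000 mature miRNA counts (CPM) in astrocyte EVs and from 11.6 to 16.9 CPM in NSC EVs. Replicates of 1 EV type differed by more than sampling noise, with a chi-square per degree of freedom of at least 20.7. The labelled cell types could not be told from mRNA fragments, as 5 astrocyte mRNAs summed to 4.16 to 14.9 CPM of the non-hairpin rows in astrocyte EVs, against 8.56 to 29.1 in NSC EVs, and 4 neural stem cell mRNAs to 6.39 to 17.3, against 12.4 to 24.0. Astrocyte EV replicate 3 stood apart from the other astrocyte EV libraries. In astrocyte EV replicates 1, 2 and 3, 4 neural miRNAs summed to 1506, 2303 and 48383 CPM, against 113069, 150188 and 109081 CPM in NSC EVs. Nearly all of the astrocyte EV sum was miR-9-5p, at 1245, 1955 and 48244 CPM. The others were not higher in replicate 3. MiR-124-3p had 0 CPM in each astrocyte EV library, miR-128-3p 152, 171 and 126 CPM, and miR-137-3p 109, 176 and 12.6 CPM. The 5 mesenchymal miRNAs summed to 92031, 98317 and 6625 CPM in astrocyte EVs, against 1864, 997 and 860.0 CPM. Values without this library are given beside the members whose level it moved.

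Of the 6 members, 5 were at least 10.6-fold lower in astrocyte EVs, and miR-92a-3p was not among them. By edgeR's quasi-likelihood test over all 256 mature miRNAs that passed the low-count filter, with Benjamini-Hochberg adjustment, these 5 members passed an adjusted p of 0.05, while 25.8% of all tested mature miRNAs were lower and 22.3% were higher. The same 5 members had no overlap between the EV types, as did 36.3% of tested mature miRNAs in the same direction. All 6 members passed the filter, which asked for 48.4 CPM in at least 3 libraries, but the 5 lower members did so only through the NSC EV group. MiR-17-5p reached that level in 2 of 3 astrocyte EV libraries, miR-20a-5p and miR-19b-3p in 1 of 3, and miR-18a-5p and miR-19a-3p in 0 of 3. The count of 5 is therefore a description and is not independent of the filter, and with at least 10 counts required in every library none of these 5 members could be tested. The median log2 fold change of the 6 members was -5.12, or -4.70 with miR-18a-5p placed at its lower bound, beside a median of -0.06 over all tested mature miRNAs. Each fold change is astrocyte EVs relative to NSC EVs on CPM scaled by TMM, a factor for library composition. In these bulk preparations, fewer EVs that carry a miRNA and less of it per EV cannot be told apart.

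MiR-17-5p, which represses cell-cycle inhibitors such as Cdkn1a, had 7, 15 and 45 counts in astrocyte EV replicates 1, 2 and 3, against 466, 730 and 354 counts in NSC EV replicates 1, 2 and 3. Each NSC EV library held several times the counts of any astrocyte EV library. The mean level was 83.5 ± 54.6 CPM in astrocyte EVs and 2344 ± 869 CPM in NSC EVs (SD, n = 3 each). The log2 fold change was -4.78 (SE 0.64, edgeR adjusted p = 0.00207), or 27.6-fold lower in astrocyte EVs, and -5.58 without astrocyte EV replicate 3, the highest of its group (edgeR adjusted p = 1.31e-04, 47.9-fold lower). MiR-20a-5p, its partner with the same seed, had 3, 12 and 13 counts in astrocyte EVs, against 306, 517 and 288 counts in NSC EVs. Its level of 38.5 ± 23.2 CPM in astrocyte EVs and 1710.3 ± 651 CPM in NSC EVs (SD, n = 3 each) corresponded to a log2 fold change of -5.45 (SE 0.65, edgeR adjusted p = 0.00159), or 43.8-fold lower in astrocyte EVs. NSC EV replicate 2 was the highest library for both miRNAs.

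MiR-18a-5p, the third member of this sequence group, was not detected in astrocyte EVs, with 0 counts in each library, against 21, 32 and 16 counts in NSC EVs. Its level in NSC EVs was 104 ± 37.0 CPM (SD, n = 3), and it was at least 24.5-fold lower in astrocyte EVs, taking 3 counts over the group as the limit (edgeR adjusted p = 0.00505). In NSC EVs it had the fewest counts of the members, and in astrocyte EVs it could not be ranked against miR-19a-3p, as both lay under that limit.

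The miR-19 pair is known as the part of the cluster that carries much of its growth-promoting activity in lymphoma. MiR-19a-3p had 0, 2 and 0 counts in astrocyte EVs, against 22, 57 and 27 counts in NSC EVs. The pooled level was 56.4-fold lower in astrocyte EVs, with a 95% counting interval of 15.2- to 472-fold that covers counting error only (edgeR adjusted p = 0.00695). Without astrocyte EV replicate 2, which held both counts, it was at least 27.4-fold lower. MiR-19b-3p, which differs from it by 1 base, had 17, 4 and 16 counts in astrocyte EVs, against 83, 204 and 68 counts in NSC EVs. It was lower in every astrocyte EV library than in any NSC EV library, at 50.4 ± 30.3 CPM in astrocyte EVs and 539 ± 335 CPM in NSC EVs (SD, n = 3 each). This gave a log2 fold change of -3.40 (SE 0.71, edgeR adjusted p = 0.00695), or 10.6-fold lower in astrocyte EVs.

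MiR-92a-3p, known for repressing integrin genes in endothelium and the proapoptotic gene Bcl2l11, had 55, 116 and 539 counts in astrocyte EVs, against 87, 53 and 74 counts in NSC EVs. Astrocyte EV replicate 1 lay within the range of the NSC EV libraries and replicate 3 was the highest. The level was 847 ± 753 CPM in astrocyte EVs and 329 ± 115 CPM in NSC EVs (SD, n = 3 each), and the log2 fold change of 1.37 did not pass the test (SE 0.70, edgeR adjusted p = 0.143). The value rested on single libraries, as it was 0.23 without astrocyte EV replicate 3 (edgeR adjusted p = 0.739) and 1.93 without astrocyte EV replicate 1 (edgeR adjusted p = 0.0451). Red blood cell miRNAs were also higher in astrocyte EVs. Of 7 such miRNAs, 6 were tested by the same test, and 5 were higher and 0 lower. Beside this, 22.3% of all tested mature miRNAs were higher, and the 7 include arms of shared hairpins. The 7 summed to 38348, 80653 and 202887 CPM in astrocyte EV replicates 1, 2 and 3, against 3323, 1878 and 2487 CPM in NSC EVs. MiR-92a-3p is itself abundant in red blood cells. MiR-486a-5p and miR-486b-5p, whose rows held near-identical counts and may repeat the same reads, made up from 98.5% to 99.6% of that sum in astrocyte EVs and from 94.0% to 98.8% in NSC EVs. MiR-451a stood at 366, 806 and 478 CPM in astrocyte EVs, against 0 CPM in each NSC EV library. It was highest in astrocyte EV replicate 2, where miR-92a-3p was not. MiR-144-3p stood at 80.8, 191 and 198 CPM in astrocyte EVs and, like miR-92a-3p, was highest in replicate 3. MiR-144-5p stood at 80.8, 212 and 151 CPM in astrocyte EVs and was highest in replicate 2. Both miR-144 arms had 2 counts over the NSC EV libraries. MiR-486a-3p had 25 counts over the astrocyte EV libraries and 39 over the NSC EV libraries, and miR-486b-3p 0 and 5. The part of red blood cell RNA in the miR-92a-3p level was not tested. Leaving these 7 miRNAs out of the table gave a log2 fold change of 1.43. That step leaves the miR-92a-3p counts unchanged, so it cannot show how many came from red blood cells.

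**Figure D1:**
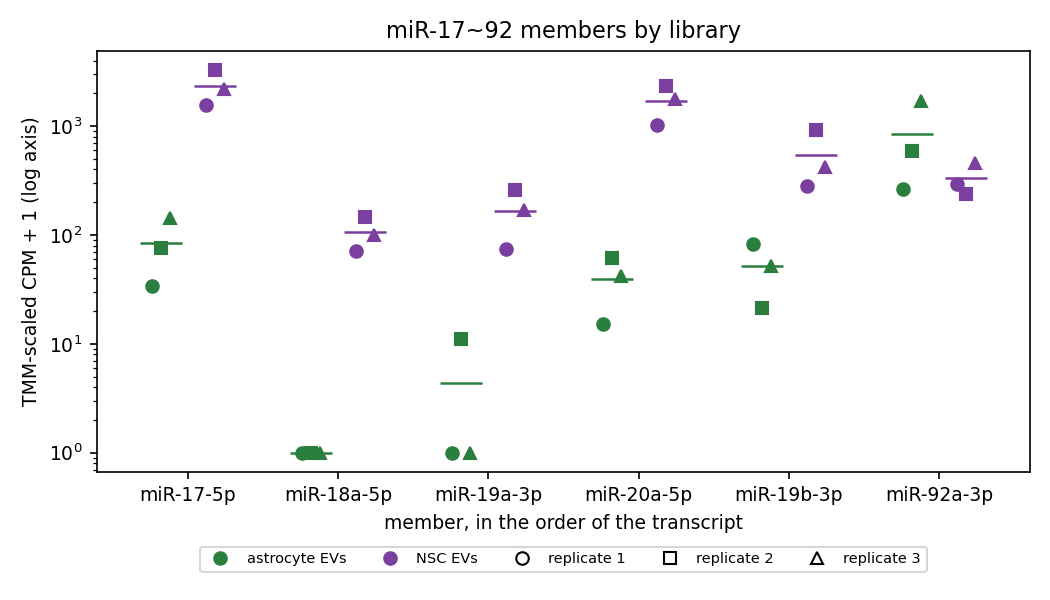
Level of each miR-17~92 member in each library, as TMM-scaled CPM + 1 on a log axis, with members in the order of the transcript, astrocyte EVs in green to the left of NSC EVs in purple, 1 marker shape per replicate and a line at the group mean. The 5 upstream members lie lower in all 3 astrocyte EV libraries than in any NSC EV library, whereas the EV types overlap for miR-92a-3p, and a marker at 1 is a count of 0.

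The order of the members therefore differed between EV types. Mature lengths run from 21 to 23 bases, so counts of the members were compared without a length correction. The order is one of counts, and how counts relate to the amounts of different miRNAs was not tested. In astrocyte EVs miR-92a-3p had the most counts of the members in 3 of 3 libraries. MiR-17-5p exceeded miR-20a-5p there in 3 of 3 libraries, but miR-17-5p exceeded miR-19b-3p in 2 of 3 and miR-20a-5p exceeded miR-19b-3p in 1 of 3, so these neighbours could not be ordered. In NSC EVs the order miR-17-5p, miR-20a-5p, miR-19b-3p held in 3 of 3 libraries, miR-19b-3p exceeded miR-92a-3p in 1 of 3, miR-19a-3p exceeded miR-92a-3p in 1 of 3, and miR-19a-3p exceeded miR-18a-5p in 3 of 3.

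A ratio of members within 1 library needs neither library size nor scaling. It compares sequences that 1 transcript encodes, although reads of miR-92a-3p and miR-19b-3p can also come from chromosome X. The ratio of miR-92a-3p to the summed counts of the other 5 members was 2.04, 3.52 and 7.28 in astrocyte EV replicates 1, 2 and 3, against 0.0969, 0.0344 and 0.0983 in NSC EVs. MiR-92a-3p thus outnumbered the rest of its cluster in every astrocyte EV library and was a minor member in every NSC EV library. On a log2 scale the ratio averaged 1.90 ± 0.92 in astrocyte EVs and -3.86 ± 0.87 in NSC EVs (SD, n = 3 each), a difference of 5.76, or 54.2-fold. An exact two-sided permutation test gave p = 0.1, the smallest p that 3 libraries against 3 allow. With any 1 library left out the difference stayed between 5.26 and 6.20, so it did not rest on astrocyte EV replicate 3.

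As a share of cluster counts, miR-92a-3p made up 67.1%, 77.9% and 87.9% in astrocyte EVs, against 8.83%, 3.33% and 8.95% in NSC EVs, or 77.6 ± 10.4% in astrocyte EVs and 7.04 ± 3.21% in NSC EVs (SD, n = 3 each; exact permutation p = 0.1). MiR-17-5p made up 8.65 ± 1.37% of cluster counts in astrocyte EVs and 45.3 ± 2.30% in NSC EVs (SD, n = 3 each; exact permutation p = 0.1). MiR-20a-5p made up 4.61 ± 3.08% in astrocyte EVs and 32.8 ± 1.90% in NSC EVs (SD, n = 3 each; exact permutation p = 0.1). The seed-sharing pair thus held most cluster counts in NSC EVs. MiR-19b-3p, at 8.68 ± 10.4% in astrocyte EVs and 9.82 ± 2.59% in NSC EVs, overlapped between the EV types (SD, n = 3 each; exact permutation p = 1).

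All 15 pairs of members were compared by the log2 ratio of their counts within a library, with 0.5 counts added to both terms in the 9 pairs that met a 0. The 5 pairs that hold miR-92a-3p had no overlap between the EV types. Relative to miR-92a-3p, miR-17-5p was lower in astrocyte EVs by a log2 difference of -5.99, miR-20a-5p by -6.63 and miR-19b-3p by -4.46 (exact permutation p = 0.1, adjusted p = 0.25 over the 15 pairs, the smallest that was obtained). Of the 10 pairs among the other members, 1 had no overlap, miR-18a-5p to miR-19b-3p, which rests on the 0 counts of miR-18a-5p in astrocyte EVs. That count of 1 was not stable: it was 2 with the pseudocount in every pair, 3, 6 and 2 without astrocyte EV replicates 1, 2 and 3, and 3 without NSC EV replicate 2, while the count of 5 pairs with miR-92a-3p held throughout.

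No difference in ratio was detected between the seed-sharing partners miR-17-5p and miR-20a-5p. The log2 ratio of miR-17-5p to miR-20a-5p averaged 1.11 ± 0.74 in astrocyte EVs and 0.47 ± 0.16 in NSC EVs (SD, n = 3 each), a difference of 0.64 that lay within the overlap of the libraries (exact permutation p = 0.3, adjusted p = 0.5). MiR-19b-3p, whose sequence is also encoded on chromosome X, gave log2 differences of -1.53 for miR-17-5p to miR-19b-3p and -2.17 for miR-20a-5p to miR-19b-3p, and these ratios overlapped too (exact permutation p = 0.2, adjusted p = 0.375 for both). These members had from 3 to 45 counts in the astrocyte EV libraries, and no pair could pass at this number of libraries.

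**Figure D2:**
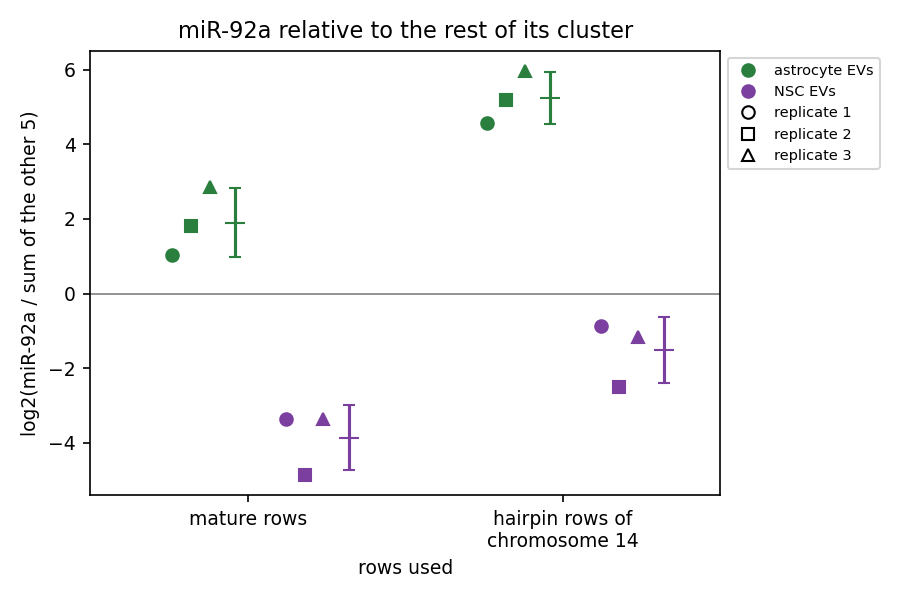
Log2 ratio to the summed other 5 in each library, for miR-92a-3p from mature rows at the left and for mir-92a-1 from the hairpin rows of chromosome 14 at the right, with astrocyte EVs in green left of NSC EVs in purple, 1 marker shape per replicate, and mean and SD beside the points. All 3 astrocyte EV libraries lie above 0 and all 3 NSC EV libraries below 0 with either set of rows.

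The cluster as a whole took 0.0450%, 0.0711% and 0.154% of mature miRNA counts in astrocyte EVs, against 0.379%, 0.783% and 0.467% in NSC EVs. This averaged 0.0899 ± 0.0566% for astrocyte EVs and 0.543 ± 0.212% for NSC EVs (SD, n = 3 each; exact permutation p = 0.1). Without miR-92a-3p the share was nearly the same in the astrocyte EV libraries, at 0.0148%, 0.0158% and 0.0185%, against 0.346%, 0.757% and 0.425% in NSC EVs. The spread of the cluster's share among astrocyte EV libraries therefore lay in miR-92a-3p.

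The count table also has a row for each hairpin, and miR-92a has 1 such row for each of its 2 loci, although reads of the shared 3′ arm cannot be assigned to either. For the other 5 hairpins of the cluster the hairpin row and the sum of its mature rows differed by at most 4 counts in any library. The hairpin mir-92a-1 of chromosome 14 (chr14:115044427-115044506) did not behave in this way. Its row held 786, 1432 and 5118 counts in astrocyte EVs, against 522, 273 and 342 counts in NSC EVs, which was 14.3, 12.3 and 9.50 times the miR-92a-3p row in astrocyte EVs, against 6, 5.15 and 4.62 times in NSC EVs. Of its 8473 counts, 7492 (88.4%) were on neither of its mature rows. Among 132 hairpins with rows for both arms and at least 100 counts, it was the only one with over 50% of counts outside the mature rows, and the next highest had 22.4%.

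The miR-92a-3p row equalled the row of the chromosome X hairpin mir-92a-2 (chrX:52741838-52741928) in 6 of 6 libraries, although the table places the mature row on chromosome 14. The miR-19b-3p row likewise equalled the chromosome X hairpin mir-19b-2 in 6 of 6 libraries, and the chromosome 14 hairpin mir-19b-1 in 4 of 6. No source used here says how reads that match several places were counted, and the cause of the surplus on the mir-92a-1 row was not tested. The order of the members, the pairs and the correlation use the mature row of miR-92a-3p alone. Its level, its ratio to the other members, its shares of the cluster and seed family, and the cluster's share are also given with the mir-92a-1 row in its place. Those values describe the hairpin row, most of whose counts lay on neither mature row.

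**Figure D3:**
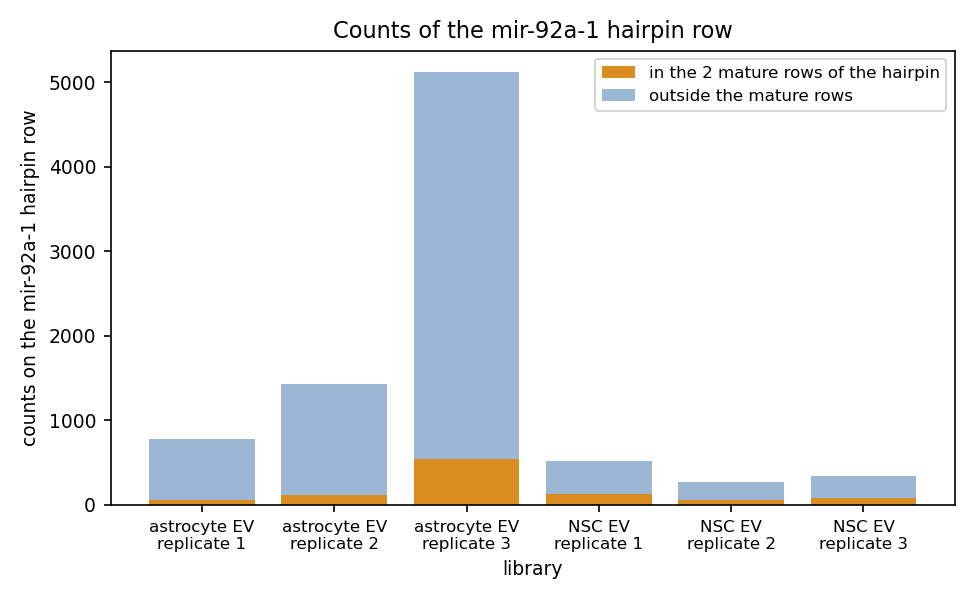
Counts on the mir-92a-1 hairpin row in each library, split into counts on its 2 mature rows in orange and counts outside them in blue, with astrocyte EV libraries left of NSC EV libraries. The outside part is the larger one in all 6 libraries, from 76.1% in NSC EV replicate 1 to 93% in astrocyte EV replicate 1, and the row is highest in astrocyte EV replicate 3 at 5118 counts.

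Unlike the miR-92a-3p row, the mir-92a-1 row passed the test as higher in astrocyte EVs. The mir-92a-1 row stood at 5986 ± 4530 CPM of hairpin counts in astrocyte EVs and 1008 ± 239 CPM in NSC EVs (SD, n = 3 each), with no overlap, and its log2 fold change was 2.57 (SE 0.59, edgeR adjusted p = 0.0106, 5.94-fold higher), where 23.3% of 258 tested hairpin rows were higher and 24% were lower. The log2 fold change was 1.72 without astrocyte EV replicate 3 (edgeR adjusted p = 0.00140), and it no longer passed the test when NSC EV replicate 2 (2.36, edgeR adjusted p = 0.0594) or NSC EV replicate 3 (2.67, edgeR adjusted p = 0.0506) was left out. The mir-92a-2 row, at 1.55 (SE 0.72, edgeR adjusted p = 0.114), did not pass the test. The remaining hairpins of the chromosome 14 cluster passed as lower in astrocyte EVs, such as mir-17 with a log2 fold change of -4.27 (edgeR adjusted p = 0.00159) and mir-19b-1 with -3.27 (edgeR adjusted p = 0.00790).

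With hairpin rows of chromosome 14 alone, the ratio of mir-92a-1 to the other 5 was 23.8, 36.7 and 62.4 in astrocyte EVs, against 0.553, 0.175 and 0.448 in NSC EVs. This was a log2 difference of 6.75 (exact permutation p = 0.1). Summed with the mature rows of the other 5 members, the mir-92a-1 row made up 96.7%, 97.7% and 98.6% of the sum in astrocyte EVs, against 36.8%, 15.1% and 31.2% in NSC EVs. The miR-92a-3p row thus outnumbered the other 5 together in every astrocyte EV library and in no NSC EV library, and so did the mir-92a-1 row. From 76.1% to 93% of the mir-92a-1 row lay on neither mature row, so it is not a second measure of mature miR-92a. On hairpin rows mir-92a-1 was not a minor member in every NSC EV library. In NSC EV replicate 1, mir-92a-1 held 522 counts, against 497 for mir-17. The mir-92a-1 row and the hairpin ratio placed the astrocyte EV libraries in the order of miR-486a-5p, miR-486b-5p, miR-486a-3p and miR-144-3p. They did not follow the order of miR-451a or miR-144-5p, and the part of red blood cell RNA in them was not tested. The same order was also that of miR-9-5p, miR-92b-3p and miR-17-5p, so it was not particular to the red blood cell list. The difference in the cluster's share of miRNA counts did not hold with the mir-92a-1 row in place of the miR-92a-3p row. The share was then 0.445%, 0.695% and 1.29% in astrocyte EVs, against 0.546%, 0.890% and 0.617% in NSC EVs, which overlapped (exact permutation p = 0.8). These readings of the hairpin rows were chosen after seeing the data.

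The second arm of each hairpin gives another view of the same transcript. The 5′ arm of mir-92a-1 is specific to chromosome 14, as the chromosome X copy has a different 5′ arm, and both are shown with bases 2 to 8 in capitals.
mmu-miR-92a-1-5p: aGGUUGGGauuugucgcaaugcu
mmu-miR-92a-2-5p: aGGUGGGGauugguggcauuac
MiR-92a-1-5p had 0, 1 and 7 counts in astrocyte EVs, against 38, 6 and 5 counts in NSC EVs, or 9.02 ± 11.5 CPM in astrocyte EVs and 61.8 ± 56.9 CPM in NSC EVs (SD, n = 3 each). Its CPM had no overlap and its pooled level was 6.52-fold lower in astrocyte EVs, but it had too few counts to enter the test. The fold rested on single libraries, as it was 2.60 without NSC EV replicate 1, which held 38 of the 49 counts, and as 1 astrocyte EV count was left without astrocyte EV replicate 3. Of the counts of miR-92a-3p and miR-92a-1-5p together, the 5′ arm made up 0%, 0.855% and 1.28% in astrocyte EVs, against 30.4%, 10.2% and 6.33% in NSC EVs (exact permutation p = 0.1). As a share of the mir-92a-1 hairpin row it was 0 of 786 counts in astrocyte EV replicate 1, which allows a share of up to 0.382%, then 0.0698% and 0.137%, against 7.28%, 2.20% and 1.46% in NSC EVs.

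Other second arms were sparse. MiR-17-3p had 6, 6 and 8 counts in astrocyte EVs, against 31, 17 and 4 counts in NSC EVs, and its CPM overlapped. With miR-17-5p lower in astrocyte EVs, miR-17-3p made up 46.2%, 28.6% and 15.1% of the counts of both arms there, against 6.24%, 2.28% and 1.12% in NSC EVs, or 29.9 ± 15.6% in astrocyte EVs and 3.21 ± 2.68% in NSC EVs (SD, n = 3 each; exact permutation p = 0.1). MiR-18a-3p had 0 counts in astrocyte EVs, against 8, 4 and 6 counts in NSC EVs, and miR-20a-3p had 0 counts, against 3, 1 and 2. These arms were at least 6.39-fold lower for miR-18a-3p and at least 2.13-fold lower for miR-20a-3p in astrocyte EVs, taking 3 counts over the group as the limit. Rows for miR-19a-5p, miR-19b-1-5p and the host transcript were not analysed here.

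The mouse genome has a pair of paralogous clusters, miR-106a-363 on chromosome X and miR-106b-25 in an intron of Mcm7, whose members repeat the seeds of miR-17~92. Of 5 miRNAs of miR-106a-363 with a row, 0 passed the low-count filter. MiR-106a-5p, which differs from miR-17-5p by U10A alone, had 7 counts over the astrocyte EV libraries and 14 over the NSC EV libraries. MiR-20b-5p had 7 and 13, miR-363-3p 4 and 10, and miR-18b-5p 0 and 4. MiR-363-5p had 0 counts in each astrocyte EV library, against 8, 5 and 4 in NSC EVs. It was at least 6.03-fold lower in astrocyte EVs, taking 3 counts over the group as the limit. The chromosome X neighbours of miR-92a-3p and miR-19b-3p therefore had few counts in both EV types.

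Of 6 miRNAs of miR-106b-25, 4 were tested and all 4 were lower in astrocyte EVs, with a median log2 fold change of -1.93. Over all tested mature miRNAs, 25.8% were lower and 22.3% higher, with a median of -0.06. The 4 share a cluster and include both arms of the same hairpin, miR-106b-5p and miR-106b-3p, so they are not separate observations. MiR-106b-5p, with the seed of miR-17-5p, had 13, 5 and 21 counts in astrocyte EVs, against 100, 153 and 60 in NSC EVs, and a log2 fold change of -3.16 (edgeR adjusted p = 0.00505). MiR-93-5p, also with that seed, had 613, 776 and 1209 CPM in astrocyte EVs, against 5214, 3693 and 3007 CPM in NSC EVs, and a log2 fold change of -2.20 (edgeR adjusted p = 0.00481). The other arm miR-106b-3p had a log2 fold change of -1.66 (edgeR adjusted p = 0.00695).

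MiR-25-3p, with the seed of miR-92a-3p, had the smallest fold change of the 4 tested miRNAs of this cluster. It had 484, 666 and 968 counts in astrocyte EVs, against 2361, 1401 and 778 in NSC EVs, at 2900.5 ± 543 CPM in astrocyte EVs and 6342 ± 1552 CPM in NSC EVs (SD, n = 3 each), and passed as lower with a log2 fold change of -1.13 (edgeR adjusted p = 0.0264). Whether it differed from its neighbours was not tested. It is shown with miR-92b-3p, from a separate locus on chromosome 3, because both share bases 2 to 8 with miR-92a-3p.
mmu-miR-25-3p: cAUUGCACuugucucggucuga
mmu-miR-92b-3p: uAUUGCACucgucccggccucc
MiR-92b-3p had 435, 737 and 12317 counts in astrocyte EVs, against 2733, 1316 and 1297 in NSC EVs. Astrocyte EV replicate 3 was the highest library and the other astrocyte EV libraries the lowest, and the log2 fold change of 0.95 did not pass the test (SE 1.01, edgeR adjusted p = 0.467).

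**Figure D4:**
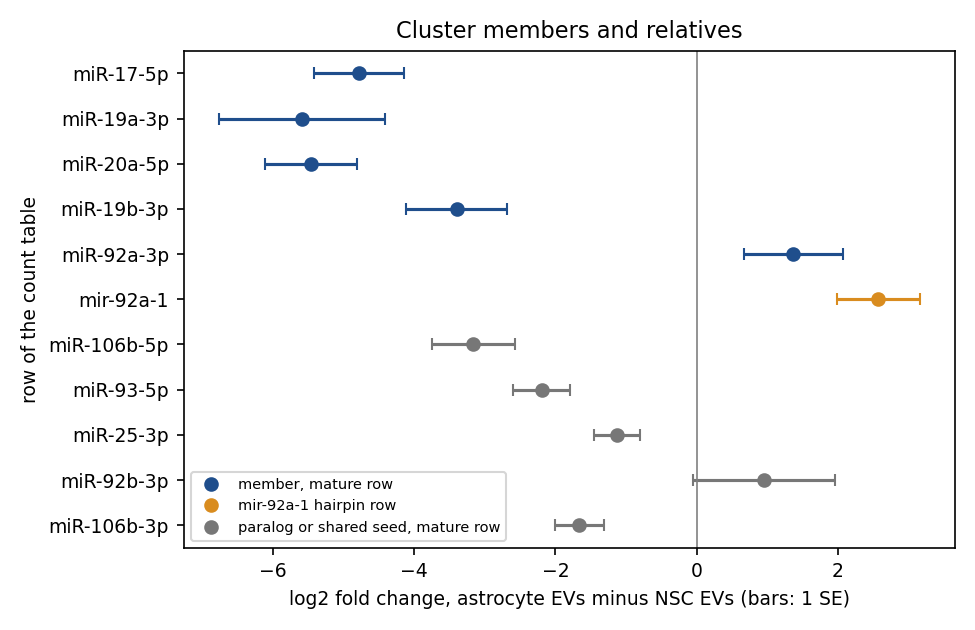
Log2 fold change, astrocyte EVs minus NSC EVs, with bars of 1 SE from edgeR, for 5 members in blue, the mir-92a-1 hairpin row in orange, and tested paralogs and miRNAs with a shared seed in gray. MiR-18a-5p is left out because its fitted value is no bound, and only the rows of miR-92a and miR-92b lie to the right of 0.

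Summed over every miRNA with a row that shares the seed, the AAAGUGC family (6 miRNAs) reached 1062 ± 371 CPM in astrocyte EVs and 8528 ± 1379 CPM in NSC EVs (SD, n = 3 each). MiR-17-5p and miR-20a-5p supplied 6.58%, 13.5% and 12.5% of its counts in astrocyte EVs, against 31.7%, 55.7% and 53.9% in NSC EVs, with the remainder mostly from miR-93-5p. The AUUGCAC family (6 miRNAs) summed to 4627, 7678 and 43520.0 CPM in astrocyte EVs, against 17387, 12477 and 13296 CPM in NSC EVs, which overlapped. MiR-92a-3p by its mature row supplied 5.65%, 7.61% and 3.90% of that family in astrocyte EVs, against 1.68%, 1.91% and 3.44% in NSC EVs, and most of the family came from miR-25-3p and miR-92b-3p. With the mir-92a-1 row in place of the mature row, that hairpin row made up 46.1%, 50.4% and 27.8% of the sum in astrocyte EVs, against 9.29%, 9.11% and 14.1% in NSC EVs. These are not shares of the seed family, as most counts of the hairpin row lay on neither mature row and were not shown to carry the seed. The GUGCAAA family consists of miR-19a-3p and miR-19b-3p alone and summed to 53.8 ± 25.4 CPM in astrocyte EVs and 704 ± 422 CPM in NSC EVs (SD, n = 3 each).

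Across the 6 libraries the patterns of miR-92a-3p and of its cluster were unlike, with a Pearson r of -0.48 between log2(CPM + 1) of miR-92a-3p and the mean of the other 5 members. Outside the cluster, its other arms, paralogs and seed families, the tested miRNAs closest to miR-92a-3p were let-7b-5p (r = 0.935) and miR-107-3p (r = 0.921). Those closest to the mean of the other 5 were miR-124-3p, which is also 1 of the 4 neural miRNAs summed above, miR-216b-5p and let-7g-5p, each with r = 0.994. These values are descriptions over 6 libraries that fall into 2 EV types, and they share the library sizes.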

How the data were processed

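Small RNA libraries from EVs were prepared and sequenced by the authors, whose paper and series record name different library kits and instruments. The authors deposited whole-number counts per annotated row, without normalization. Per the submitters' notes, reads were processed on mm10 with tools that include bedtools, SAMtools, Bowtie2, Bowtie, cutadapt, FastQC and DESeq. Rules for strand and multiple mapping were not given. The authors' own fold changes, p-values and group means were not used.

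Mature rows and hairpin rows were fitted separately, since they repeat reads. Library size was the sum of mature (or hairpin) rows. Each fit was made in edgeR 4.0.16 under R 4.3.3 (TMM, default filter by group, quasi-likelihood, Benjamini-Hochberg over all tested rows, calls at an adjusted p of 0.05). The TMM factors lay between 0.796 and 1.16, with a common dispersion of 0.338. Ratios and shares used exact two-sided permutation tests in scipy 1.17.1. Share intervals (95%, Wilson) and limits at 0 (3 counts) cover counting error only. DESeq2 1.42.0 was an alternative, beside other size factors, library sizes and filters, each library left out, a replicate block, hairpin rows and no red blood cell miRNAs. Named miRNAs were the members, their other arms, paralogs, miRNAs with a shared seed and the closest patterns. Members and lists were chosen with earlier results of these data known.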

Additional observations from a re-analysis of the deposited data

Results flagged for a closer look

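The mir-92a-1 hairpin row held 7492 counts over the 6 libraries that lay on neither of its mature rows, a signal outside the mature rows on which the comparisons rest. Of these, 6618 were in astrocyte EVs and 874 in NSC EVs, or 3473, 6625 and 14389 CPM of mature miRNA counts in astrocyte EV replicates 1, 2 and 3, against 1331, 961 and 1627 CPM in NSC EVs. Their source was not tested.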

How the results depend on the processing

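The 5 lower members kept their direction and call in 70 of 70 alternative results. With at least 10 counts required in every library, 33 mature miRNAs were lower and 33 higher, against 66 and 57, and these 5 members were not tested. Leaving out 1 library gave 45 to 93 lower and 34 to 69 higher miRNAs (34 without NSC EV replicate 2), a log2 fold change of miR-92a-3p from 0.23 to 1.93 and of the mir-92a-1 row from 1.72 to 2.94. Hairpin rows gave 2.57 for mir-92a-1. Pairs among the other 5 members without overlap numbered 1, then 2 with a pseudocount and 1 to 6 with a library left out. With the mir-92a-1 row in place of the miR-92a-3p row, the cluster's share, astrocyte EVs minus NSC EVs, turned to 0.124 percentage points. Low counts in astrocyte EVs limit all ratios among the 5 lower members.

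The replicate numbers are not stated to pair libraries, and same-numbered libraries correlated at 0.0455, 0.0997 and 0.0513, although each library correlated best with its own number. With a replicate block, 55 mature miRNAs were lower and 45 higher, miR-92a-3p had a log2 fold change of 1.02 (edgeR adjusted p = 0.182), the mir-92a-1 row 2.33 (edgeR adjusted p = 0.0352), and the ratio of miR-92a-3p to the others 5.76 (exact permutation p = 0.25, the smallest that 3 pairs allow).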
